A study of Mus musculus with 6 samples.

Results

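Bone morphogenetic protein (BMP) signalling and the Id proteins were followed through 10 genes, measured in satellite cells, the resident stem cells of mouse skeletal muscle. The genes were the ligand Bmp4, the receptor Bmpr1a, the secreted antagonists Chrdl2 and Grem1, the inhibitory Smads Smad6 and Smad7, and Id1, Id2, Id3 and Id4. Each was taken from the probe sets that the platform annotation gives to exactly 1 gene, and where a gene had several the one with the highest mean on the 6 arrays was to be kept. All 10 were found among the 19938 genes of the series, and each had 1 probe set. The series holds 3 arrays of freshly isolated satellite cells and 3 of satellite cells after 5 days in culture, all of strain C57BL/6J, 2 months old, from hind-limb, abdominal and triceps muscle. Cells were sorted as positive for B1-integrin and CXCR4 and negative for CD45, CD31, CD11b, Ter119 and Sca1, from muscle at rest. Culture took place on wells coated with collagen type 1 and laminin, in F10 medium holding 20% donor horse serum and given bFGF at 5 ng/ml each day. The labels name 3 mice and do not tie arrays to them, so the p-values rest on a spread between samples that may be technical.

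BMP ligands bind pairs of type I and type II receptors on the cell surface, which phosphorylate Smad1, Smad5 and Smad9. These join Smad4 and enter the nucleus, where the Id genes, Smad6 and Smad7 are among the best-known direct targets. Id proteins hold a helix-loop-helix without a DNA-binding region, so they tie up E proteins and keep myogenic factors such as MyoD from pairing with them. In muscle, BMP signals and Id proteins are known for holding back differentiation, and antagonists such as chordin-like and gremlin proteins bind the ligand outside the cell.

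The promoters of genes that fell and of Id genes that did not pass the test are shown so that their sequence can be set beside the values. Sequences are from RefSeq, build GRCm38.p6, as the 250 bases before the gene's start, 5′ to 3′ on the gene's strand, for Id3 (chr4:136143572-136143821, plus strand), Bmp4 (chr14:46390670-46390919, minus strand), Id2 (chr12:25096093-25096342, minus strand) and Id4 (chr13:48260866-48261115, plus strand). Capitals mark matches, on either strand, to 7 short motifs, each found alone or beside others. GGCGCC is called the first Smad motif here, and the letters GGAGCC the second Smad motif, both of a kind that BMP-type Smads bind. The letters TGANTCA are the AP-1 motif of Fos and Jun proteins. The core of the cAMP response element, bound by CREB and ATF proteins, was searched as TGACGT on both strands. Helix-loop-helix factors bind E-boxes, of which CAGCTG was searched as the first E-box, and the letters CACGTG as the second E-box. The EGR motif was searched as GTGGGCG on both strands.
Id3: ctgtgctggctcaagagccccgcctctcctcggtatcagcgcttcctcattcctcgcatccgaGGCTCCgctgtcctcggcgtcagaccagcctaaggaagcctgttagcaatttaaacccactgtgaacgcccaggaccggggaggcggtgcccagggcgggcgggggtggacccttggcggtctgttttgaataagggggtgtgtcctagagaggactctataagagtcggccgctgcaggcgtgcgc
Bmp4: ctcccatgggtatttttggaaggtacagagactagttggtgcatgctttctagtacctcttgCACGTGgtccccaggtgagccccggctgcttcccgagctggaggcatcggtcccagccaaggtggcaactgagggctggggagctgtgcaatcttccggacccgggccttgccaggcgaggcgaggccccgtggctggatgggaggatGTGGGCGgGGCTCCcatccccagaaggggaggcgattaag
Id2: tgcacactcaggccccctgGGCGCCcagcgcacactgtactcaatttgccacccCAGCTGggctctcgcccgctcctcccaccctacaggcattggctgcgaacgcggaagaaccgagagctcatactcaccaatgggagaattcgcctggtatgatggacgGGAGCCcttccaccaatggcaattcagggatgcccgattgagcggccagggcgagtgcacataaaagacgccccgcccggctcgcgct
Id4: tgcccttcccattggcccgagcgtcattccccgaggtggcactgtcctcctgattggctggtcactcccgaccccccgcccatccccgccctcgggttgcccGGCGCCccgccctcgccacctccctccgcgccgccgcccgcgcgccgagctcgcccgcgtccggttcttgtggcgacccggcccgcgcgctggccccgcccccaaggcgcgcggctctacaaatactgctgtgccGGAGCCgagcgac
Of the 10 genes, a promoter window was searched for 7 and not for Id1, Chrdl2 and Smad7. The search of the members left out promoters of a chromosome that the shares over all promoters kept. Such a rule can leave a member without a searched window. The Id3 window held 1 match, to the second Smad motif, starting 187 bases before the gene's start. The Bmp4 window held the second E-box at 188, the EGR motif at 40 and the second Smad motif at 32 bases before the start, with no overlap. The Id2 window held the first Smad motif, the first E-box and the second Smad motif at 231, 196 and 88 bases, and the Id4 window the first and second Smad motifs at 148 and 13 bases. Over the 7 windows, the first Smad motif was found in 4 and the second in 5, against 9.59% and 26.0% of all 32851 promoters of this length. The AP-1 motif and the response element core had no match in the 7, and matched in 6.75% and 6.47% of all promoters. The first E-box, the second E-box and the EGR motif matched in 1, 1 and 2 of the 7, and in 13.0%, 6.02% and 7.02% of all promoters. The windows were rich in G and C, at 62.8% for Id3 and Id2, 63.2% for Bmp4 and 75.6% for Id4, against a mean of 53.2% over all promoters. Such matches describe letters in a window and are not known sites.

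Over the 10 genes, Chrdl2, Bmp4 and Id3 fell in culture, none rose, and 7 did not pass the test. The test was limma with Benjamini-Hochberg adjustment over all 19938 genes at an adjusted p of 0.05. The fitted log2 fold changes of the 3 genes were -4.26, -3.03 and -2.54. Of all genes tested, 3.37% were lower by this rule and 0.953% higher, and 4.32% were called in either direction. The share of 3 in 10 is above that background, in a group of genes proposed with results of these data in view. The 3 cultured values lay wholly below the 3 fresh values for 4 of the 10 genes, Id4 being the fourth, against 10.3% of all genes, and against 23.2% for no overlap in either direction. The median log2 fold change of the 10 genes was -0.27, and that of all genes 0.04. The plot of levels by array shows the separation of the 3 genes and the overlap of most others.

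**Figure D1:**
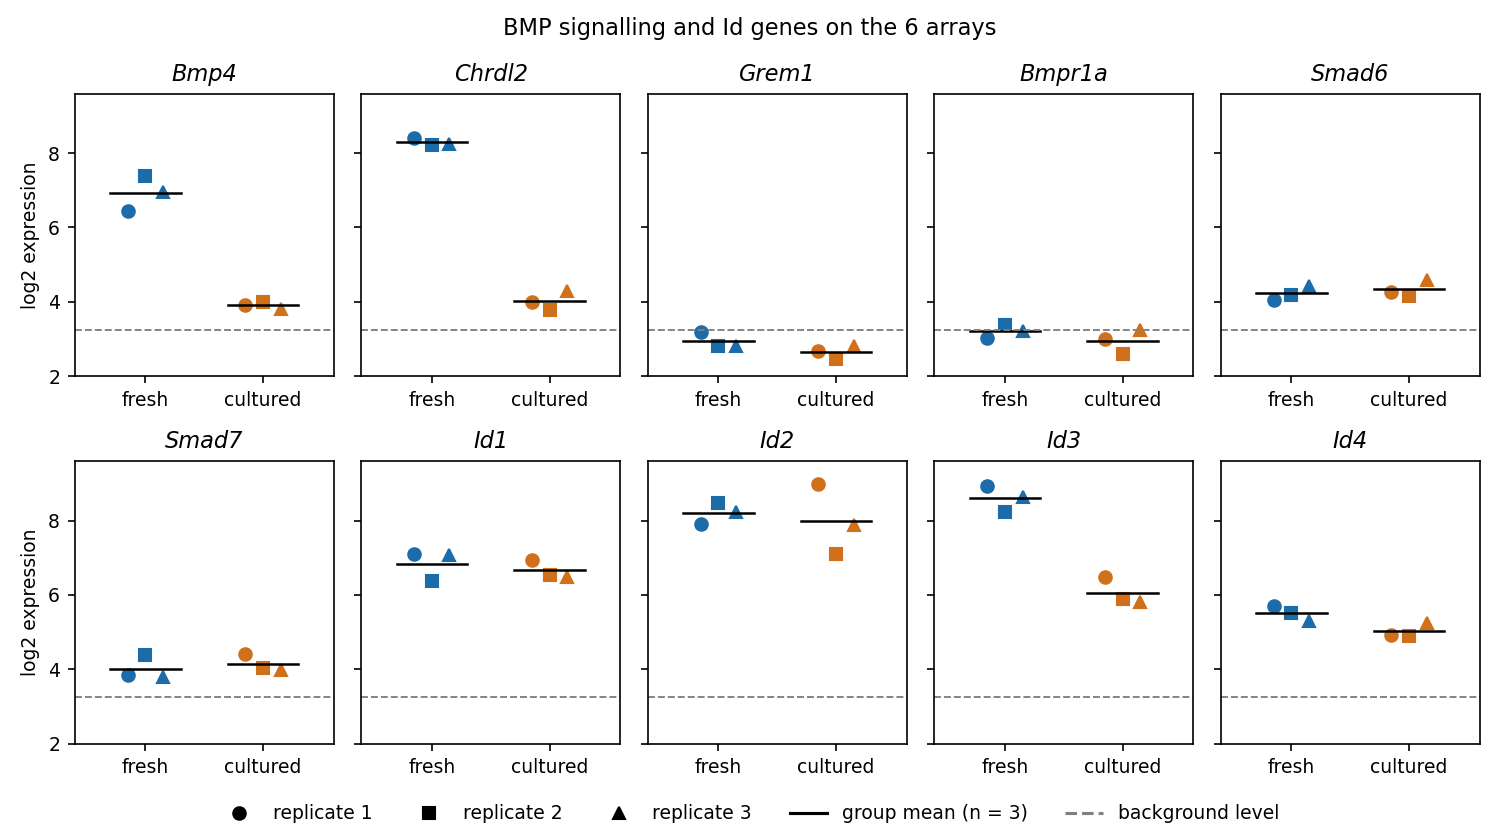
Log2 expression (vertical axis) of the 10 genes on the 3 fresh (blue) and 3 cultured (orange) arrays; symbols give the replicate, black lines the group means (n = 3), and the dashed line the background level of 3.25. Bmp4, Chrdl2 and Id3 separate widely, Id4 narrowly, and Grem1 and Bmpr1a lie at or near the background; heights of different genes are not comparable.

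Bmp4, the ligand of the group, was clearly expressed on the fresh arrays and close to the low end on the cultured ones. Its log2 level was 6.45, 7.39 and 6.94 on fresh replicates 1, 2 and 3, and 3.91, 4.0 and 3.80 on the cultured replicates. Every cultured value lay more than 2 log2 units below every fresh value, with the fresh arrays more spread than the cultured ones. The mean fell from 6.93 ± 0.47 (SD, n = 3) to 3.90 ± 0.10, a log2 fold change of -3.03 ± 0.23 (SE) or 8.14-fold lower (95% confidence interval 5.59 to 11.9), with an adjusted p of 0.000343. All 3 cultured values stayed above a background of 3.25, the value that 95% of the readings of 1194 smell and pheromone receptor genes (Olfr and Vmn) did not exceed on the 6 arrays.

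Chrdl2, a chordin-like protein that binds BMP ligands outside the cell and a gene known from quiescent satellite cells, had the largest change of the 10. It was at 8.42, 8.20 and 8.23 on the fresh arrays and at 3.99, 3.79 and 4.28 on the cultured arrays. The fresh values lay within a narrow band, far above all cultured values, which were still above background. The log2 fold change was -4.26 ± 0.16 (SE), or 19.2-fold lower with a 95% confidence interval of 14.7 to 25.0, at an adjusted p of 1.29e-05. The antagonist Grem1, by contrast, gave no usable signal. It was at 3.20, 2.82 and 2.81 on the fresh and at 2.69, 2.47 and 2.82 on the cultured arrays, below background on all 6, and at a log2 difference of -0.29 (adjusted p = 0.439) that is best not read as a change.

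Bmpr1a, a type I receptor for BMP2 and BMP4, was also at the limit of detection. Its values of 3.03, 3.37 and 3.23 on the fresh and 3.01, 2.60 and 3.24 on the cultured arrays overlapped, and 1 of the 6, fresh replicate 2, exceeded the background. The log2 difference was -0.26 (95% confidence interval -0.71 to 0.19; adjusted p = 0.556), and with most values in the background the arrays do not set its level in either group.

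The inhibitory Smads, which block the pathway from inside the cell and are themselves induced by it, did not pass the test. Smad6 was at 4.06, 4.18 and 4.44 on the fresh and at 4.27, 4.15 and 4.59 on the cultured arrays. Smad7 was at 3.84, 4.38 and 3.79 on the fresh and at 4.42, 4.02 and 3.97 on the cultured arrays. For both genes the groups overlapped and all 6 values were above background. The log2 difference was 0.11 for Smad6 (95% confidence interval -0.29 to 0.51; adjusted p = 0.794) and 0.13 for Smad7 (-0.35 to 0.61; adjusted p = 0.81). These intervals leave room for a modest change in either direction. The fresh means were 4.22 for Smad6 and 4.01 for Smad7, against a background of 3.25. So near to background, a fall as large as that of Bmp4 or Id3 could not be measured for either gene.

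Among the Id genes, Id3 fell and the other 3 did not pass the test. Id3 was at 8.94, 8.22 and 8.64 on the fresh and at 6.49, 5.88 and 5.80 on the cultured arrays. The groups were well apart, with cultured replicate 1 the highest of its group. The mean fell from 8.60 ± 0.36 (SD, n = 3) to 6.06 ± 0.37, a log2 fold change of -2.54 ± 0.25 (SE) or 5.83-fold lower (95% confidence interval 3.92 to 8.65), with an adjusted p of 0.00116.

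Id1, the Id gene most used as a readout of BMP signalling, was at 7.09, 6.36 and 7.07 on the fresh and at 6.94, 6.55 and 6.48 on the cultured arrays. The groups overlapped, since fresh replicate 2 was the lowest of all 6 values. The log2 difference was -0.18 ± 0.23 (SE; 95% confidence interval -0.73 to 0.36; adjusted p = 0.752). After quantile normalization and after cyclic loess it turned positive, at 0.36 and 0.12, also without passing the test.

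Id2 was at 7.91, 8.48 and 8.22 on the fresh arrays and at 8.99, 7.09 and 7.89 on the cultured arrays. The cultured arrays spanned both the highest and the lowest of the 6 values, and their SD of 0.95 was over 3 times the fresh SD of 0.29. The log2 difference was -0.21 with a 95% confidence interval of -1.21 to 0.79 (adjusted p = 0.852). It was -0.71 without cultured replicate 1 and 0.24 without cultured replicate 2, and neither passed the test.

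Id4 was at 5.71, 5.51 and 5.30 on the fresh and at 4.92, 4.91 and 5.24 on the cultured arrays. The groups did not overlap, but fresh replicate 3 and cultured replicate 3 were nearly equal. The log2 difference of -0.49 ± 0.17 (SE) had a p of 0.02 in limma before adjustment and an adjusted p of 0.177, so it was not called.

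Whether the Id genes differed in their change was tested on the difference between 2 Id genes within each array. The log2 fold change of Id1 minus that of Id3 was 2.36, that of Id2 minus that of Id3 was 2.33, and that of Id3 minus that of Id4 was -2.06. For these 3 pairs the differences on the cultured arrays did not overlap those on the fresh arrays. The exact two-sided permutation p was 0.1 for each of them, the smallest that 3 against 3 arrays can give, and 0.2 after Benjamini-Hochberg adjustment over 6 pairs, so no pair can pass in this design. In the deposited values the pairs among Id1, Id2 and Id4 differed by at most 0.30, with exact permutation p from 0.5 to 0.9. Their differences moved with the normalization. After quantile normalization Id1, Id2 and Id4 were at 0.36, 0.42 and -0.29, and with cyclic loess at 0.12, 0.47 and -0.42.

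**Figure D2:**
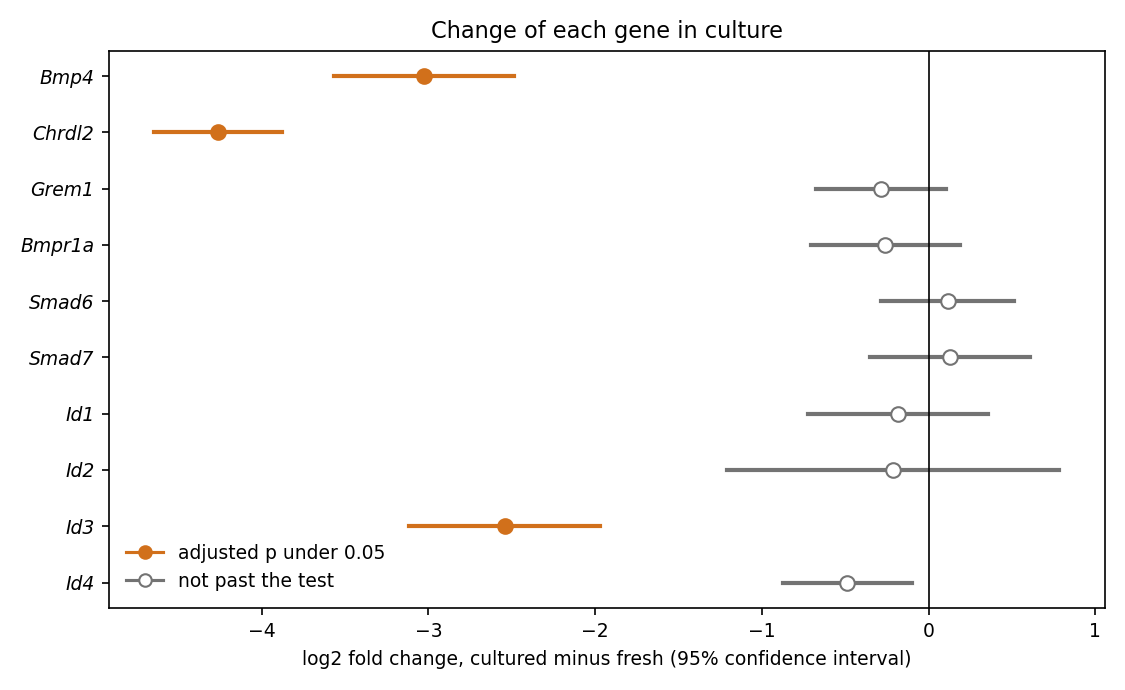
Log2 fold change (horizontal axis, cultured minus fresh) of each gene with its 95% confidence interval from limma (n = 3 arrays a group); filled orange points passed an adjusted p of 0.05 over all genes. The intervals of Bmp4, Chrdl2 and Id3 lie far below 0, from -4.64 for the lower end of Chrdl2 to -1.97 for the upper end of Id3, while those of the other genes reach no lower than -1.21.

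The direction and the call of Bmp4, Chrdl2 and Id3 held under all 16 other settings, 10 of them other ways to normalize, filter or test and 6 leaving out 1 array each. Id3 ranged from -2.76 to -2.00, Bmp4 from -3.27 to -2.79 and Chrdl2 from -4.39 to -3.95, with a highest adjusted p of 0.0122, 0.00468 and 0.00041. No setting brought any of the other 7 genes past the test. The smallest size of the fall of Id3 came after quantile normalization. Bright genes as a whole were lower on cultured replicates 2 and 3. The part of this in the falls of Id3, Chrdl2 and Bmp4 was not tested. Among genes as bright as Id3, with a mean of 7.33, the 244 genes between 7 and 8 had a median log2 fold change of -0.72. Their median gap to the fresh mean was -0.0006 on cultured replicate 1, -1.30 on replicate 2 and -0.91 on replicate 3. For Chrdl2, with a mean of 6.15, the 498 genes between 6 and 7 had -0.43, and for Bmp4, with a mean of 5.41, the 1286 genes between 5 and 6 had -0.14. The falls of the 3 genes were larger than these medians by more than 1.5 log2 units each. Brightness here is the mean over all 6 arrays, which a fall in culture itself lowers. The fresh means of Id3, Chrdl2 and Bmp4 were 8.60, 8.28 and 6.93. The small negative differences of Id1 and Id2 were smaller in size than the medians of genes as bright as they were. Those medians were -0.43 and, over 105 genes between 8 and 9, -0.63.

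**Figure D3:**
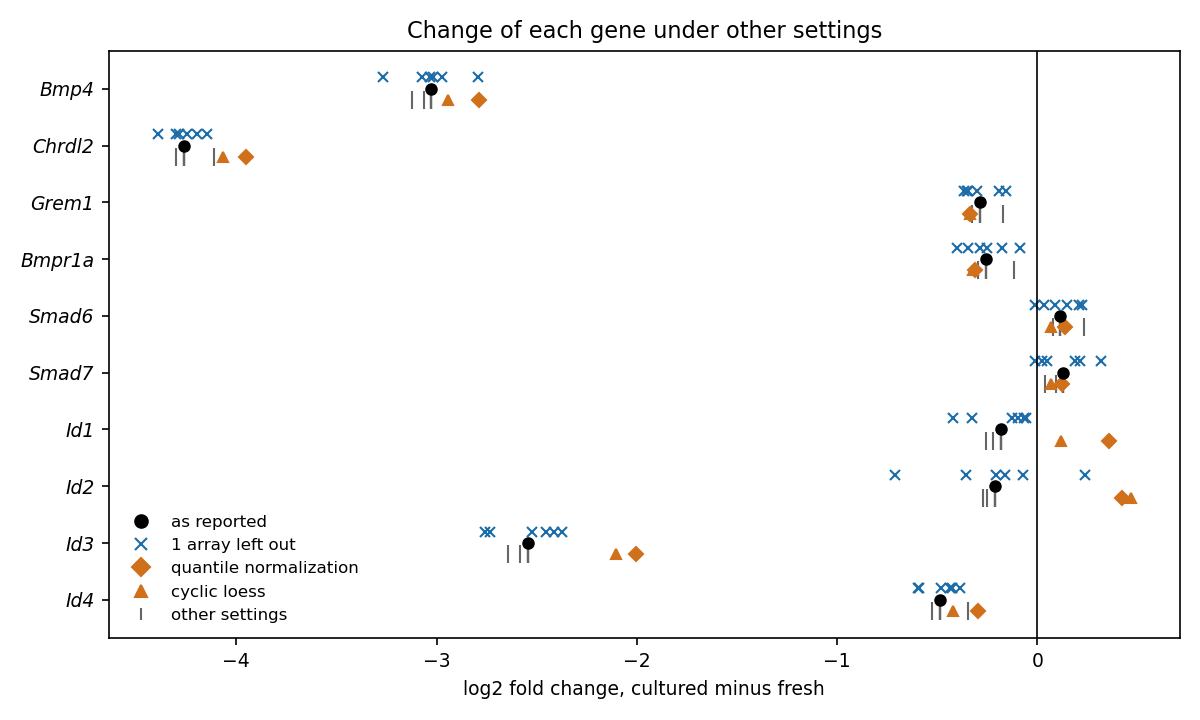
Log2 fold change (horizontal axis, cultured minus fresh) of each gene as reported (black), with 1 array left out (blue crosses), after quantile normalization (diamonds) or cyclic loess (triangles) and under the remaining settings (grey bars). Chrdl2, Bmp4 and Id3 stay at or below -2.00 throughout; Id1 and Id2 change sign with the normalization.

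The rest of the pathway was read from lists by role, 74 measured genes in all with the 10 above, of which 10 fell and none rose. That is 13.5% lower, against 3.37% of all genes, and the median log2 fold change of the 74 genes was -0.04. The 10 genes above supplied 3 of these falls. The 2 shares are of unlike sets, since 17 of the 74 genes were within background in both groups, against 8445 of all 19938. Each role held 1 or 2 of the falls, and the medians of the 7 lists by role lay between -0.51 and 0.12.

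Of 14 ligands, Bmp2, a close relative of Bmp4 that uses the same receptors, fell beside it. Bmp2 was at 5.29, 5.36 and 5.05 on the fresh and at 2.70, 3.39 and 3.00 on the cultured arrays, where 1 of 3 values was above background. Its fitted log2 fold change was -2.21 in limma (95% confidence interval -2.67 to -1.75; adjusted p = 0.000767). The fresh mean lay 2.01 log2 units above the background of 3.23 for cultured group means, and the cultured mean below it. A fall beyond that size cannot be measured. Bmp6 was at -0.73 (adjusted p = 0.0742), Bmp7, whose fresh mean was 3.18, at 0.64 (adjusted p = 0.0728) and Bmp8a at 0.36 (adjusted p = 0.237). The list median was -0.02, and 5 of the 14 ligands were within background in both groups.

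Of 12 receptors and co-receptors, 1 fell. Tgfbr3, betaglycan, a co-receptor that also binds BMP ligands, was at 5.50, 5.94 and 5.68 on the fresh and at 4.18, 3.86 and 4.40 on the cultured arrays, a log2 fold change of -1.56 (adjusted p = 0.00355). The type II receptor Bmpr2 was lower on every cultured array, at 4.43, 4.41 and 4.43 against 5.02, 5.35 and 4.90, but at -0.67 with an adjusted p of 0.0579 it did not pass. The co-receptor Rgmb was at -0.69 (adjusted p = 0.327) and Bmpr1b, below background in both groups, at 0.40 (adjusted p = 0.198).

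Of the 4 Smads that carry the signal, the common partner Smad4 fell. Smad4 was at 6.15, 5.94 and 6.21 on the fresh and at 5.20, 5.13 and 5.00 on the cultured arrays, a log2 fold change of -0.99 (adjusted p = 0.00718) or 1.98-fold lower. The receptor-activated Smads did not pass, with Smad5 at -0.56 (adjusted p = 0.32), Smad1 at -0.46 (adjusted p = 0.101) and Smad9 at 0.26 (adjusted p = 0.528).

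Of 10 intracellular inhibitors, 2 fell. They were Tob1, an antiproliferative protein that binds Smads, at -1.59 (adjusted p = 0.0148), and the phosphatase Ppm1a, which removes phosphate from Smads, at -1.40 (adjusted p = 0.0365). Neither call was firm. The adjusted p of Tob1 rose to as much as 0.0698 when fresh replicate 2 or 3 was left out. That of Ppm1a rose to as much as 0.152 when any fresh array, or cultured replicate 2 or 3, was left out. The repressor Skil was at -0.99 (adjusted p = 0.0902), the peptidyl-prolyl isomerase Fkbp1a, which holds type I receptors inactive, at 0.23 (adjusted p = 0.603) and Ski at -0.20 (adjusted p = 0.492).

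Of 20 measured secreted antagonists and modulators, 2 fell, Chrdl2 and Twsg1. Twsg1, twisted gastrulation, binds chordin and BMP ligands, and was at 5.44, 5.89 and 6.25 on the fresh and 4.31, 4.39 and 4.39 on the cultured arrays, a log2 fold change of -1.50 (adjusted p = 0.00663). The follistatin-like Fstl1 was at -0.93 (adjusted p = 0.0689), the chordin-cleaving protease Bmp1 at -0.83 (adjusted p = 0.317) and the antagonist Nbl1 at -0.40 (adjusted p = 0.458). Noggin, Chrd and Fst, the best-known antagonists of the list, were at -0.03, 0.15 and 0.08, none past the test. Their fresh means were 3.46, 3.87 and 3.66, so near to the background of 3.25 that a large fall could not be measured. Of the 20 genes, 6 were within background in both groups.

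Of 10 measured BMP target genes other than Id and inhibitory Smad genes, Hey1, which Notch also induces, fell by 1.36 on the log2 scale (adjusted p = 0.0474). Leaving out fresh replicate 1 or 2, or cultured replicate 2 or 3, ended this call, with a highest adjusted p of 0.183. Atoh8, a helix-loop-helix factor, was at 3.18, 3.83 and 4.07 on the fresh and at 4.49, 4.61 and 4.50 on the cultured arrays, and Gata2, a factor of blood and vessel development, at 3.51, 3.44 and 3.76 against 4.33, 4.07 and 4.37. Both were higher on all 3 cultured arrays, by 0.84 (adjusted p = 0.0941) and 0.69 (adjusted p = 0.0504), and so did not pass. Gata2 did pass under 6 of the 16 other settings, with a lowest adjusted p of 0.0166 with array weights. The median of this list was 0.12.

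**Figure D4:**
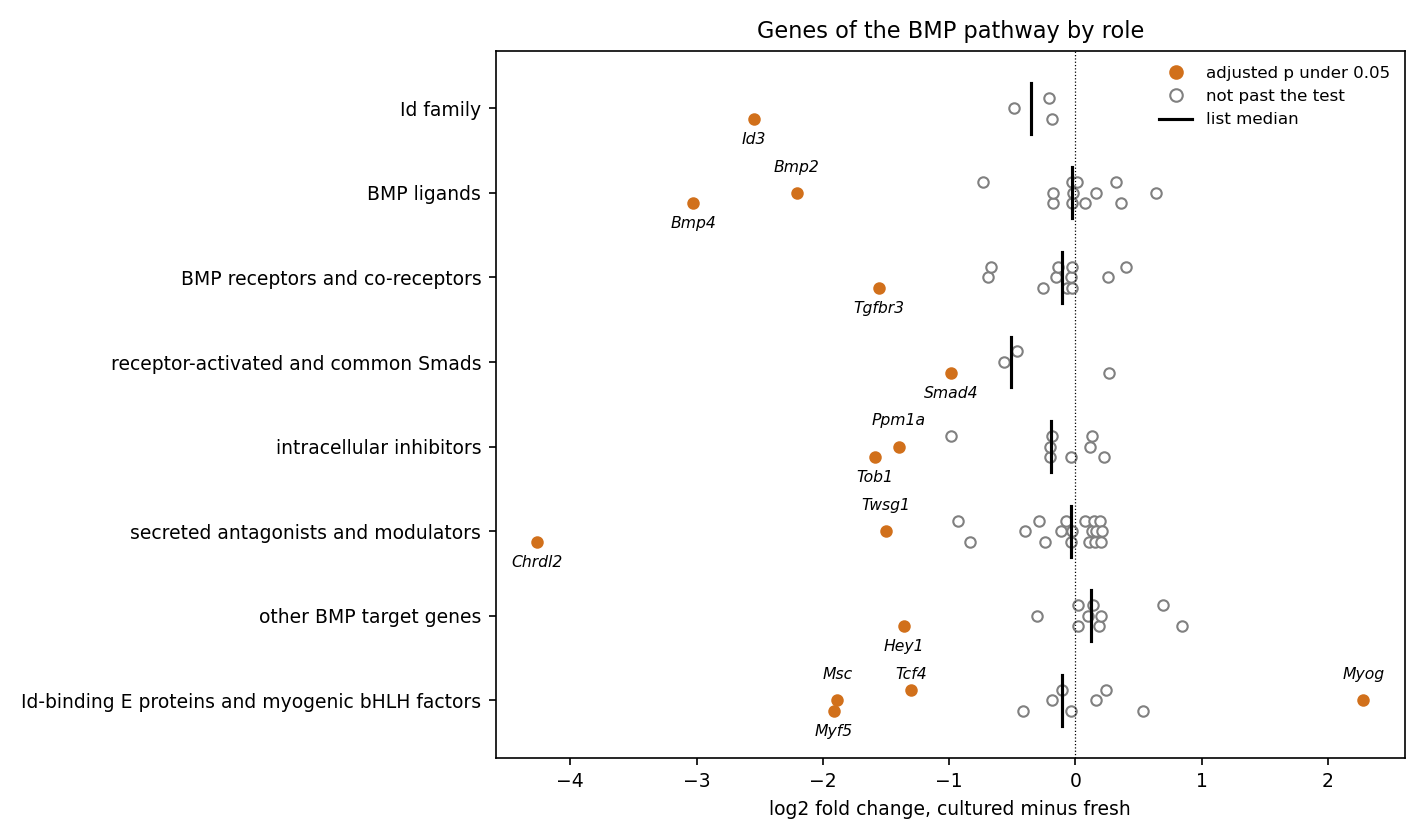
Log2 fold change (horizontal axis, cultured minus fresh) of every measured gene by role, with filled orange points past an adjusted p of 0.05 over all genes and black bars at the list medians. The named falls lie apart from lists whose medians are between -0.51 and 0.12.

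The helix-loop-helix proteins that Id proteins bind, or whose partners they bind, gave a mixed picture, with 3 of 11 lower and 1 higher. Myf5, a myogenic factor of satellite cells, was at 6.70, 6.97 and 7.45 on the fresh and at 5.44, 5.13 and 4.81 on the cultured arrays, a log2 fold change of -1.91 (adjusted p = 0.00389). Msc, musculin, a repressor related to the myogenic factors, was at 6.25, 5.68 and 5.88 against 3.83, 4.31 and 4.02, a log2 fold change of -1.88 (adjusted p = 0.00174). The E protein gene Tcf4 was at -1.30 (adjusted p = 0.0149), a call that ended when replicate 3 of either group was left out (highest adjusted p 0.0755). Myog, the myogenic factor of differentiation, rose by 2.28 (adjusted p = 0.0465), a call that ended when any fresh array or cultured replicate 2 was left out (highest adjusted p 0.166). The E protein gene Tcf3 was at 0.53 (adjusted p = 0.168), Myod1 at -0.41 (adjusted p = 0.532) and Twist2 at 0.24 (adjusted p = 0.485).

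Profiles over the 6 arrays, each centred on its own mean, were compared with those of 17027 named genes by root mean square distance on the log2 scale. The 3 nearest to Chrdl2 were the AP-1 subunit gene Junb at 0.20, the stress-response gene Gadd45b at 0.22 and the autophagy gene Gabarapl1 at 0.26, with log2 fold changes of -3.89, -3.92 and -3.86. Nearest to Id1 were Aar2, C2cd3 and Zbtb32, at 0.071, 0.084 and 0.10, with log2 differences of -0.21, -0.19 and -0.18 between the groups. With 6 arrays in 2 groups, likeness mostly follows the size of the group difference, and it is given as a description.

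The arrays carried the markers of satellite cells. Of 12 markers, all were above background in the fresh and 11 in the cultured group. In culture 8 fell and 4 did not pass the test. The fitted falls ran from -1.21 for Des to -5.90 for Chodl. Pax7 was at -1.33 and Cxcr4, a surface protein of the sort, at -2.47. Chodl had a mean of 8.39 on the fresh arrays and of 2.49, below background, on the cultured ones. Of 10 endothelial markers, 6 were within background in both groups, among them Pecam1, Cdh5, Kdr and Emcn. The mean level of this list was 2.79 to 2.83 on the fresh and 2.90 to 3.06 on the cultured arrays. Tek fell, at a fitted -0.76 (adjusted p = 0.0413) with all 3 cultured values below background. Its fresh mean lay only 0.11 log2 units above the background of 3.23 for cultured group means. Cldn5 was at 0.76 (adjusted p = 0.0945), and Tie1 was at 3.22 to 3.61 on the 6 arrays. Of 9 measured blood cell markers, 7 were within background in both groups, among them Ptprc, whose product CD45 the sort selected against, with a list mean of 2.51 to 2.75 on the fresh and 2.78 to 2.86 on the cultured arrays. Laptm5 rose by 1.06 (adjusted p = 0.00651), to 4.35, 4.30 and 4.03 on the cultured arrays, and Cd3e was at 3.51 to 3.90 on the 6 arrays. Of 9 measured fibro-adipogenic markers, 4 fell (Dcn, Dpt, Col3a1 and Gsn) and none rose. The mean level of the 9 was 4.92 to 5.28 on the fresh and 3.52 to 3.57 on the cultured arrays. Dpt was at 7.39, 7.24 and 7.68 and Dcn at 8.53, 7.78 and 5.86 on the fresh arrays. Their fitted log2 fold changes were -5.02 and -4.52, with all cultured values below background. Lum and Pi16 were within background in both groups. Pdgfra, which defines these cells, was at 3.23 to 3.61 on the fresh arrays. The part of such cells in the falls of Bmp4, Chrdl2 and Id3 was not tested, and in bulk samples fewer cells of a type and less RNA per cell cannot be told apart. Of 7 tendon markers, Tnmd, Fmod, Thbs4 and Kera were higher on fresh replicate 1 than on the other 5 arrays, with Thbs4 at 6.11 against 3.89 and 2.98 on the other fresh arrays. Comp and Mkx were not, nor was Scx, at 5.26 against 5.23 and 4.69, with a log2 difference of 0.86 between the groups (adjusted p = 0.0838). Without fresh replicate 1, Bmp4, Chrdl2 and Id3 were at -3.27, -4.20 and -2.37. None of 9 smooth muscle and pericyte or 5 measured Schwann cell markers passed the test, which does not make them absent. Of the 9, 8 were above background in the fresh and 7 in the cultured group, among them Acta2 at 6.24 to 8.16 on the 6 arrays. Of the 5, 3 were above background in each group, and Sox10 was at 4.56 on fresh replicate 1 and at 3.26 to 3.68 on the other 5 arrays.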

How the data were processed

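Per the labels' protocols, Trizol-extracted RNA was biotin-labelled (WT terminal labelling) for Affymetrix arrays. The deposited table holds log2 expression values of 35556 probe sets, made with RMA and the package oligo per the submitters' processing notes. RMA compresses differences near background. Their genome build is not given in the sources used. Probe sets with 1 gene numbered 21789, those with several 1621 and unlisted ones 12146, and the former were named through the platform annotation and RefSeq gene names of GRCm38.p6. The fit used limma 3.58.1 in R 4.3.3 (lmFit, eBayes) with group as the only term, over 19938 genes without a filter. The members, lists, motifs and tests were chosen with earlier results of these data known. Genes named beside the members are those of each list past the test, up to 3 others with the largest absolute change, and others that show an overlap or a background level. Tables and figures were made in Python 3.11.15. In a simulation of the cultured against fresh comparison on 19938 genes, the fit recovered 27, 43, 49 and 50 of 50 genes changed by 1, 2, 3 and 4 on the log2 scale, with 9 false calls. The simulated noise was independent between genes and arrays. It left out the lower level of bright genes on cultured replicates 2 and 3, so the false calls do not cover it. The number of arrays limits the precision. Other settings are listed in the closing section.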

Additional observations from a re-analysis of the deposited data

How the results depend on the processing

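The number of lower members, 3, and of higher members, 0, was the same under all 16 other settings: array weights, a replicate block, a robust prior with a trend, quantile, cyclic loess and median scaling, a filter that kept genes above 3.25 on 3 or more arrays, 2 other probe set rules, treat against 1.2-fold, and leaving out each array. The filter dropped Bmpr1a and Grem1. The number of genes called moved far more. It was 861, and 1742 with array weights, 1511 after quantile normalization, 1492 with cyclic loess, 557 with treat, and 448 to 1517 with 1 array left out. Lower genes numbered 671, and 1157 with array weights, 1035 with cyclic loess and 380 to 1278 with 1 array left out. Higher genes numbered 190, and 101 with the replicate block, 585 with array weights, 586 after quantile normalization, 457 with cyclic loess, 71 with treat, and 51 to 279 with 1 array left out. Of the called genes 22.1% were higher, and 38.8% after quantile normalization, 33.6% with array weights, 15.3% with the replicate block, 12.7% with treat, and 10.8% to 34.7% with 1 array left out, the lowest without fresh replicate 3 and the highest without cultured replicate 2. The median of the 4 Id genes was -0.35, and 0.03 after quantile normalization. The difference between the changes of Id1 and Id2, 0.03, turned to -0.066 after quantile normalization and -0.35 with cyclic loess, and the cause was not tested. Replicate numbers are shared by the groups, and the deviations of same-numbered arrays had correlations of -0.09, -0.14 and 0.03. With so few arrays this cannot settle whether they are pairs, and the main fit did not treat them as pairs. With the replicate block 662 genes were called, Id3, Bmp4 and Chrdl2 kept their calls at adjusted p of 0.00167, 0.00186 and 0.000408, and Hey1, Tcf4 and Myog lost theirs at 0.0639, 0.0582 and 0.0555. Of the 11 pathway genes called beside the members, 6 kept their call under every setting and Tob1, Ppm1a, Hey1, Tcf4 and Myog did not. Genes that passed only under other settings were Gata2 (6 of 16) and Bmp7 (1), higher, and Skil (5), Fstl1 (4), Bmpr2 (3), Bmp6 (2), Rgmb (1) and Smad1 (1), lower. Treat also ended the calls of Ppm1a, Hey1 and Myog. Values within background, as for Grem1 and Bmpr1a, limit what can be read of their change.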
